A study of Mus musculus with 6 samples.

Results

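The genes described here are the zinc finger genes of mouse chromosome 13, chosen by symbol and position alone: every row of the expression table on that chromosome whose symbol starts with Zfp and a digit. The rule found 37 of the 18476 genes in the table. The table also held 670 other genes of chromosome 13 and 353 genes with such a symbol on other chromosomes. The group was put together with the vasostatin-2 results already known, because Zfp729a had stood out in them. The differences between treatments given below are therefore descriptions of these libraries and are not used as evidence about the group.

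Bulk RNA was sequenced from femoral arteries damaged with a wire, in C57BL/6 mice of wild-type genotype 3 days after injury, with 3 libraries from arteries given saline around the vessel and 3 from arteries given vasostatin-2, a fragment of chromogranin A. Injury, strain and genotype were common to both groups, so that no uninjured artery entered a comparison. The label of the samples names vascular smooth muscle cells, but the RNA came from the injured artery as a whole.

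Most zinc finger proteins of this kind bind DNA through a row of C2H2 fingers, short loops that each hold a zinc ion and together read a stretch of sequence. Many mammalian members carry a KRAB box in front of the fingers, which recruits the corepressor TRIM28 and, through it, the histone methyltransferase SETDB1 and heterochromatin proteins. Such genes arise by tandem duplication and are known for silencing transposable elements. The mouse cluster on chromosome 13 holds the regulator of sex-limitation genes, Rsl1 and Rsl2, which restrain male-biased genes of the liver, and Rsl2 is listed in the table as Zfp429.

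By the domains listed in the deposited annotation, 32 of the 37 genes encoded a KRAB box. The 5 without one were Zfp322a, Zfp346, Zfp367, Zfp366 and Zfp131. Zfp131 carried a BTB domain, which pairs proteins with each other, and Zfp369 a SCAN domain, which has the same use. The number of C2H2 fingers found by pattern in the longest reading frame ran from 1 in Zfp367 to 30 in Zfp729b.

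In the coordinates of the table (GRCm38.p6), 24 of the genes lay in a single cluster, chr13:66670274-67827000, with no gap above 1 Mb between neighbours. All 24 carried a KRAB box. The other 13 were scattered: Zfp808, Zfp934 and Zfp935 together, Zfp72 and Zfp825 together, and 8 alone. Zfp729a, at chr13:67612760-67637803, lay inside the large cluster between Zfp729b (chr13:67589439-67609707) and Zfp738 (chr13:67658669-67683512).

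These 3 neighbours share long stretches of coding sequence, shown here because reads from identical stretches cannot be assigned by sequence. Their reading frames in GENCODE M21 were 2919 (Zfp729a), 3135 (Zfp729b) and 2379 bases (Zfp738) long, of which 1368 could be aligned across all 3 without gaps. These bases run from the first to the last long run identical in all 3, so this part was picked for its likeness. The rest of each frame is left out of the identities below. Of the aligned bases 1285 were the same in all 3. Over these bases alone, pairwise identity was 97.4% between Zfp729a and Zfp738, 95.1% between Zfp729a and Zfp729b and 95.3% between Zfp729b and Zfp738. The longest stretch identical in all 3 was 151 bases long and lay in exon 4 of 4, at chr13:67621178-67621328 in Zfp729a, chr13:67593259-67593409 in Zfp729b and chr13:67670940-67671090 in Zfp738, on the minus strand in each.
Zfp729a, Zfp729b and Zfp738: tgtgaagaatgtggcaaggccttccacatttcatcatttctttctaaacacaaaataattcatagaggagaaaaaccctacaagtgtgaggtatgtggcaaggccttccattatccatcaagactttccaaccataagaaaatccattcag

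Within the aligned bases, the stretch of 84 with the most differences, also in exon 4, differed at 16 positions, which are in capitals. It lay at chr13:67620481-67620564 in Zfp729a, chr13:67592562-67592645 in Zfp729b and chr13:67670243-67670326 in Zfp738. Zfp729b alone stood apart at 15 of the 16 and Zfp738 alone at 1.
Zfp729a: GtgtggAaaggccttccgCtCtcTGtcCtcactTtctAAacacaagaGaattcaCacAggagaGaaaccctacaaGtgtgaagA
Zfp729b: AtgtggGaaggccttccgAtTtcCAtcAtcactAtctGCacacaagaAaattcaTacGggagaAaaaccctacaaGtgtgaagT
Zfp738: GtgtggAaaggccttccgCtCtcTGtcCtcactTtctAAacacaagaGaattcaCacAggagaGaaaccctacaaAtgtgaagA

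Outside the reading frame of Zfp729a lay 69.1% of the 9455 bases of its transcript. This part was not aligned. Sharing was instead counted as exact stretches over all annotated transcripts, a different measure from percent identity. By that count 5.47% of the 100-base stretches of Zfp729a also occurred in another gene, 4.23% in Zfp738. At 50 bases the shared part was 14.9%. Zfp729b shared 38.3% of its 100-base stretches with another gene model, Gm49345. Zfp708 (94.3%), Zfp456 (58.0%) and Zfp58 (43.8%) also shared much of their sequence, mostly with 1 other gene model each. The gene matched to Zfp935 shared 56.1% with a model that GENCODE itself names Zfp935. That value is therefore not read as sharing with a different gene, and the match of Zfp935 is unsure. In 10 of the 36 genes that matched a GENCODE gene, among them Zfp131, Zfp369 and Zfp346, no 100-base stretch was shared. The median was 3.45% over these 36 genes and 0% over the 17804 matched genes of the table. In 32 of the 37 genes (86.5%) at least 1 library had a deposited count that was not a whole number, against 67.7% of the Zfp genes on other chromosomes and 43.8% of all genes. In the large cluster this held for 24 of 24. Such counts were also found in 6 of the 10 genes that shared no 100-base stretch. All 6 did share stretches of 50 bases, from 0.368% in Zfp169 to 7.30% in Zfp65. Zfp346 and Zfp72, which shared no 50-base stretch, had whole counts in every library. So did Zfp366, Zfp184 and Zfp367, which shared 0.35%, 0.666% and 10.2% of theirs. How the counts came to be fractional, and how reads shared between genes were treated, the sources used here do not say.

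The promoters of the cluster were also alike. RefSeq promoter windows of 300 bases (GRCm38.p6), from 250 before to 50 after a start, were found for 31 of the 37 genes. The stretch TGGGANNTGTAGT, where N is any base, was noticed in the windows of Zfp729a, Zfp738, Zfp65 and Zfp429 and then searched on both strands in all windows. It resembles the binding element of the transcription factor ZNF143. It was present in 19 of 21 cluster genes (90.5%), and in 15 of 17 (88.2%) when the 4 genes it was read from were left out. It was present in 1 of 10 of the other zinc finger genes of the chromosome, Zfp72, and in 36 of 293 with a Zfp symbol on other chromosomes (12.3%). Over 14580 genes of the table with a window the share was 2.85%. The 60 bases around the motif, all before the RefSeq transcript start, are given for 6 genes from both ends and the middle of the cluster and for the single gene outside it, with the motif in capitals.
Zfp712 (chr13:67061192-67061251, minus strand): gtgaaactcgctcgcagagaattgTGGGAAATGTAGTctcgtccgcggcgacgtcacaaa
Zfp455 (chr13:67194425-67194484, plus strand): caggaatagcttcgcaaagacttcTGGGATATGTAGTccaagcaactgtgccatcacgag
Zfp595 (chr13:67332577-67332636, minus strand): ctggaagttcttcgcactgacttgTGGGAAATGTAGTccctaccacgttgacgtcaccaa
Zfp729a (chr13:67637782-67637841, minus strand): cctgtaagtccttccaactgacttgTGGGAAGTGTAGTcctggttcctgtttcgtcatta
Zfp738 (chr13:67683534-67683593, minus strand): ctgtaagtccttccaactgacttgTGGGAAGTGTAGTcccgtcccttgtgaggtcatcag
Zfp273 (chr13:67813724-67813783, plus strand): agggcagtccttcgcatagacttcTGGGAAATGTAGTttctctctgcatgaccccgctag
Zfp72 (chr13:74390848-74390907, minus strand): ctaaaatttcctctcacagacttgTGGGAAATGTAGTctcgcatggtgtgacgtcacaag

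The cluster genes whose windows held no match were Zfp640 and Zfp459. A match is a description of these letters and not of a bound site.

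**Figure D1:**
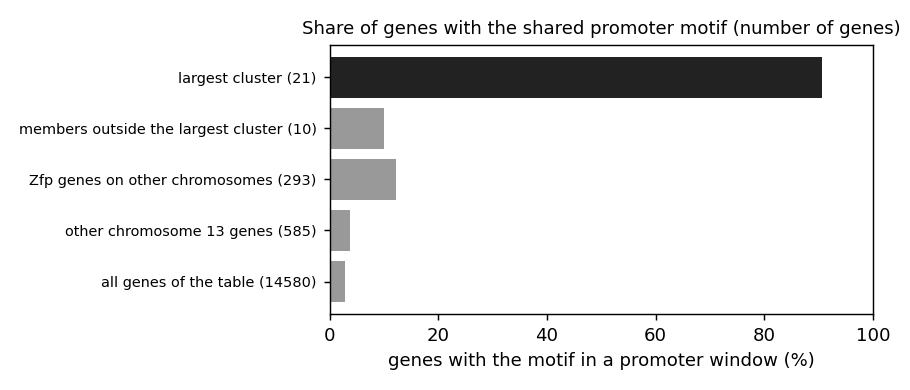
Percent of genes with the 13-base motif in at least 1 promoter window (x axis), for the large cluster and 4 other sets of genes (y axis, number of genes in parentheses). The bar of the cluster stands at 90.5%, and the other 4 lie at 12.3% or lower.

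Levels between genes were compared in TPM, which allows for transcript length. The zinc finger genes were weakly expressed: mean TPM over the 6 libraries ran from 0.0183 to 23.6 with a median of 4.59, against 5.46 over the Zfp genes on other chromosomes and 10.6 over all genes of the table. There were 7 genes at 10 TPM or more and 4 below 1 TPM. The genes with a KRAB box had a median of 3.96 TPM, while the 5 without one lay between 4.73 and 23.6 TPM. Zfp640 was close to absent, with an estimated count of 1.35 in vasostatin-2 replicate 2 and 0 in the other 5 libraries. That is under the floor of 3 counts used here, and it was the only one of the 37 that did not pass the low-count filter.

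Zfp131, a BTB-type transcriptional regulator, had the highest level, at 25.4 ± 1.69 TPM in saline and 21.9 ± 1.66 TPM with vasostatin-2 (SD, n = 3 each, as for all values below). Zfp825, a KRAB gene, followed at 15.7 ± 1.34 and 16.1 ± 2.01 TPM, and Zfp729a was at 15.7 ± 0.729 and 11.4 ± 0.457 TPM. In saline these 2 genes did not differ beyond their spread. With vasostatin-2 every library of Zfp729a lay below every library of Zfp825.

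The next ranks were taken by Zfp429 (Rsl2; 11.6 ± 1.05 and 9.82 ± 0.710 TPM), Zfp935 (10.6 ± 1.08 and 10.7 ± 1.26 TPM) and Zfp346, which encodes a protein that binds double-stranded RNA (10.7 ± 0.365 and 10.3 ± 0.406 TPM). Zfp367 was at 9.95 ± 2.27 and 10.1 ± 1.18 TPM. Zfp65, Zfp369 (the neurotrophin receptor-interacting factor NRIF2) and Zfp87 had means over all libraries of 9.09, 9.06 and 8.77 TPM. Neighbours in this order from Zfp429 to Zfp87 lay within each other's spread, so their order is not firm.

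**Figure D2:**
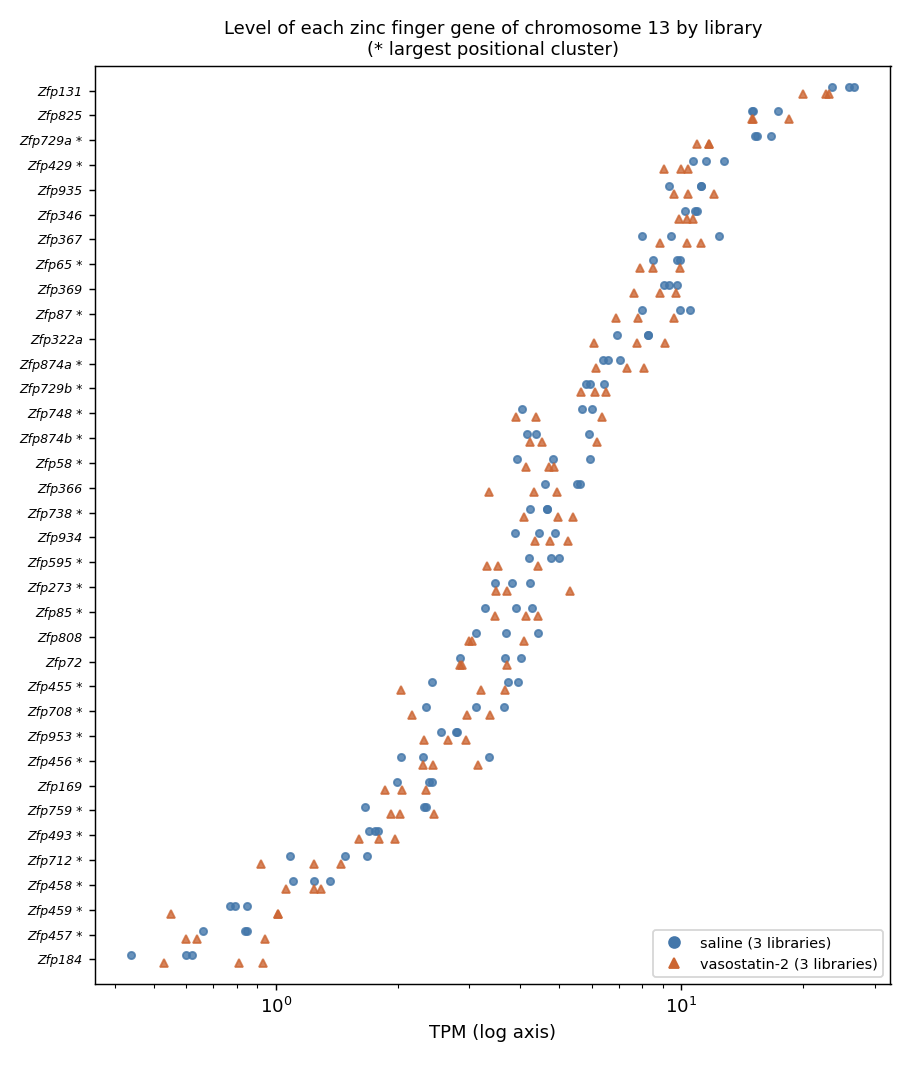
TPM of each of the 36 genes that passed the low-count filter (y axis, ordered by mean level) in each library on a log x axis, with saline and vasostatin-2 libraries as separate symbols. Zfp640 is not drawn. Zfp131 is at the top at a mean of 23.6 TPM, and Zfp729a, at 13.6 TPM, is the highest gene of the large cluster.

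Within the cluster Zfp729a stood well above these paralogues. Its mean of 13.6 TPM compared with 6.09 TPM for Zfp729b and 4.66 TPM for Zfp738. By counts, which are larger for a long transcript, it held between 16.1% and 17.3% of all CPM of the 37 genes in the saline libraries. With vasostatin-2 that share was between 12.5% and 14.9%. CPM is the count relative to the scaled library total and is used below to compare 1 gene between libraries.

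For Zfp729a the saline libraries read 70.0, 75.0 and 75.4 CPM and the vasostatin-2 libraries 54.9, 51.0 and 54.7 CPM. All 3 vasostatin-2 libraries lay below all 3 saline libraries, with a wide gap between the groups and little spread within them. The group means were 73.5 ± 3.00 and 53.6 ± 2.21 CPM, so that the vasostatin-2 mean was 72.9% of that in saline, a log2 change of −0.46 (SE 0.07). The authors' deposited table gives a log2 change of −0.46 for it as well. In estimated counts this gene had between 1019.26 and 1513.75 per library.

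The paralogues on either side had no such gap between groups. Zfp729b was at 13.3, 16.1 and 13.7 CPM in saline and 15.5, 13.4 and 14.5 CPM with vasostatin-2 (log2 change 0.01, SE 0.11). Zfp738 was at 9.95, 9.82 and 9.97 CPM in saline and 11.9, 10.9 and 9.03 CPM with vasostatin-2 (log2 change 0.10, SE 0.13). In both genes the groups overlapped, and the saline libraries of Zfp738 were closer together than its vasostatin-2 libraries.

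The ratio of Zfp729a to Zfp729b was 5.25, 4.67 and 5.51 in the saline libraries and 3.54, 3.80 and 3.76 with vasostatin-2. For Zfp729a to Zfp738 it was 7.04, 7.64 and 7.57 against 4.62, 4.67 and 6.06. Neither set of ratios overlapped between groups. The summed CPM of the 3 genes was 93.3, 101 and 99.1 in saline and 82.4, 75.3 and 78.3 with vasostatin-2, a log2 ratio of −0.31. The sums did not overlap either, but Zfp729a itself made up most of them, with a mean of 73.5 of 97.8 CPM in saline. The part of read division in the difference was not tested.

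**Figure D3:**
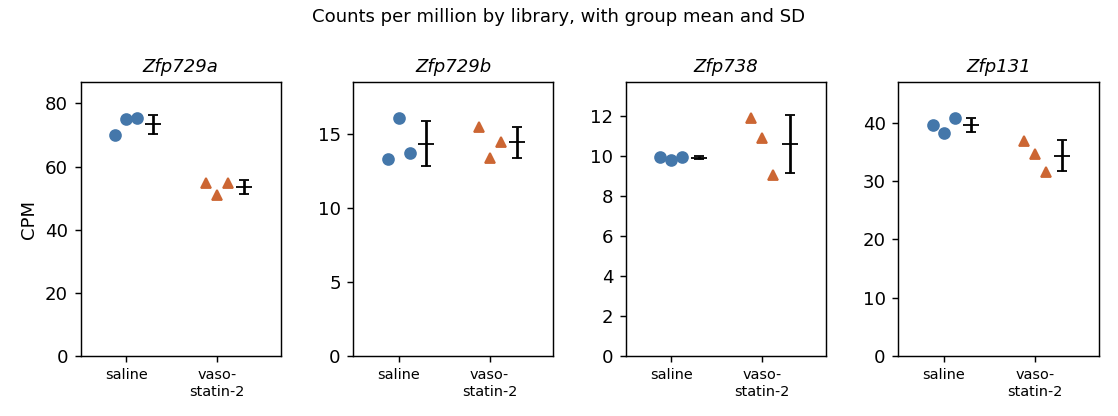
CPM (y axes, each from 0 and on its own scale) of Zfp729a, Zfp729b, Zfp738 and Zfp131 in the 3 saline and 3 vasostatin-2 libraries (points), with the group mean and SD beside them. The groups are apart for Zfp729a (73.5 and 53.6 CPM) and Zfp131 (39.5 and 34.3 CPM) and overlap for Zfp729b and Zfp738.

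Zfp131 was the other gene whose groups did not overlap. Its saline libraries were at 39.6, 38.3 and 40.8 CPM and its vasostatin-2 libraries at 36.8, 34.7 and 31.5 CPM. The gap between the lowest saline and the highest vasostatin-2 library was small beside the spread with vasostatin-2. The log2 change was −0.20 (SE 0.08), less than that of Zfp729a.

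Markers of blood cells varied widely among the same libraries. The summed CPM of 7 red cell markers was 1837, 12351 and 2502 in saline and 2360, 380 and 310 with vasostatin-2, and that of 10 neutrophil markers was 569, 607 and 357 against 436, 198 and 269. Both sums overlapped between groups, and that of the red cells was by far the highest in saline replicate 2. All 7 tested red cell genes and all 8 tested neutrophil genes had a lower mean with vasostatin-2. The groups were apart in 0 and 1 of them. Other blood cell sets were mixed. A lower mean was found in 8 of 9 tested genes of T and NK cells and 3 of 6 of B and plasma cells. Among monocyte and macrophage genes 2 of 10 were lower and 8 higher. Groups were apart in 1, 0 and 5 genes of these 3 sets, against 12.8% of all genes in either direction. edgeR called none of the genes in these sets. The part of these cells in the difference was not tested. In bulk tissue, fewer cells of a type and less RNA per cell cannot be told apart.

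The quasi-likelihood test of edgeR, with p-values adjusted by Benjamini-Hochberg over 14557 genes, called 0 genes (0%) between the treatments at an adjusted p of 0.05, and hence 0 of the 36 zinc finger genes that passed the filter. The lowest adjusted p of any gene was 0.198. At an unadjusted p of 0.05 it gave 1040 genes, 561 lower (3.85%) and 479 higher (3.29%). Of the zinc finger genes, 2 were lower by that measure, Zfp729a and Zfp131, and 0 higher. DESeq2 called 64 genes lower (0.458%) and 49 higher (0.351%) of the 13973 to which it gave an adjusted p, and 1 of them, Zfp729a, belonged to the 36. limma-voom called 0 genes. A q-value below 0.05 was given to 98 genes in the authors' deposited table, and Zfp729a was the single zinc finger gene of chromosome 13 among them. Groups did not overlap in 978 genes in the lower direction (6.72%) and 883 in the higher direction (6.07%). For the zinc finger genes these counts were 2 (5.56%) and 0. Since the group was formed around a gene with a known difference, nothing is read from these counts.

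Of the 36 genes 15 had a higher and 21 a lower mean with vasostatin-2, and the log2 changes ran from −0.46 to 0.50 with a median of −0.060. The median was −0.001 over all genes, −0.020 over the other genes of the chromosome and −0.012 over the Zfp genes elsewhere. It turned to 0.003 when vasostatin-2 replicate 3 was left out and was −0.112 without vasostatin-2 replicate 1, so that the direction of the median rested on single libraries. In the large cluster 10 genes were higher and 13 lower (median −0.077), and outside it 5 were higher and 8 lower (median −0.043).

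The largest lower changes after Zfp729a were those of Zfp595, at 8.93 ± 0.997 CPM in saline against 7.19 ± 1.11 CPM with vasostatin-2, and of Zfp366 (DC-SCRIPT, a regulator of dendritic cells), at 7.28, 6.51 and 7.23 against 6.64, 4.50 and 5.82 CPM. Both had a log2 change of −0.31, with SEs of 0.16 and 0.17. Groups overlapped in each.

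The largest higher change was that of Zfp184, a KRAB gene at a very low level, with 0.727 ± 0.149 CPM in saline against 1.03 ± 0.315 CPM with vasostatin-2 (log2 change 0.50, SE 0.35). Zfp459 (log2 change 0.16, SE 0.28) and Zfp934 (0.13, SE 0.17) followed. In these 3 genes, too, the groups overlapped, and none was more than 2 SEs from 0.

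Of the other abundant genes, Zfp429 had a log2 change of −0.23 (12.9 ± 1.57 and 11.0 ± 0.845 CPM, SE 0.12) and Zfp87 one of −0.22 (SE 0.18). By TPM the groups of Zfp429 did not overlap, with saline libraries at 10.7, 12.7 and 11.5 and vasostatin-2 libraries at 10.4, 9.99 and 9.04 TPM. By CPM they did. Zfp65 (−0.10), Zfp369 (−0.09), Zfp346 (−0.04), Zfp935 (0.01), Zfp825 (0.02) and Zfp367 (0.03) had log2 changes of at most 0.10 in size.

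**Figure D4:**
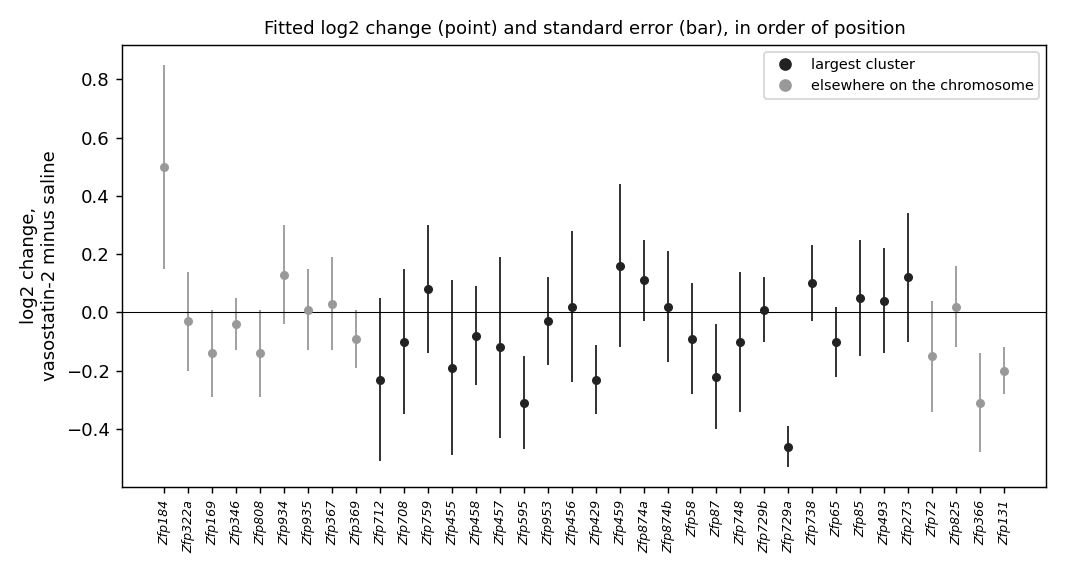
Fitted log2 change with vasostatin-2 against saline (y axis; point, with its standard error as a bar) for the 36 genes that passed the filter, in order of position on chromosome 13 (x axis), the large cluster in black and other genes in grey. Zfp729a lies lowest at −0.46 between neighbours near 0, and Zfp184 highest at 0.50 with a wide error.

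Summed over all 37 genes, CPM was 406, 465 and 436 in saline and 438, 389 and 366 with vasostatin-2, a log2 ratio of −0.13. The groups overlapped. Without Zfp729a the ratio over the other 36 was −0.07, and over the rest of the large cluster the sums were 142, 179 and 155 against 173, 148 and 137 CPM, a ratio of −0.06.

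Genes of the cluster differed among libraries of the same treatment in a shared pattern. Of its 23 tested genes, 16 (69.6%) had their lowest saline value in replicate 1 and 17 (73.9%) their highest in replicate 2. Over all genes these shares were 33.2% and 38.0%. With vasostatin-2, 17 (73.9%) were highest in replicate 1 and 16 (69.6%) lowest in replicate 3, against 35.9% and 36.2% of all genes. The same libraries also stood out among other zinc finger genes, by shares of 53.8%, 69.2%, 69.2% and 53.8% in the same order for the 13 outside the cluster and 43.8%, 54.7%, 61.7% and 51.7% for those on other chromosomes. For the 6 tested genes in the span of the cluster without a Zfp symbol the shares were 83.3%, 83.3%, 66.7% and 50%. For all other genes of chromosome 13 they were 33.3%, 41.6%, 34.8% and 41%. These differences between sets were not tested. Zfp455 was an example, at 3.08, 5.48 and 4.78 CPM in saline and 4.85, 4.20 and 2.65 CPM with vasostatin-2. Its saline replicate 1 and vasostatin-2 replicate 3 were both low, whatever the treatment.

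Correlations of log2 CPM, each taken over 6 libraries after subtracting the group mean, had a median of 0.52 over the 253 pairs of cluster genes. The median was 0.17 among Zfp genes of other chromosomes and −0.00 among a sample of all genes. These points share their libraries, depth and tissue composition, and the values are descriptions. Pairs that shared a stretch of 50 bases (40 pairs, median 0.48) had a lower median than those sharing none (213 pairs, 0.54). Zfp729a took part less in the pattern in size: its deviations stayed between −0.07 and 0.04 on the log2 scale. Those of Zfp455, at 52.40 to 106.17 counts per library, reached −0.50, the furthest of any cluster gene. Some other cluster genes also deviated little, between −0.13 and 0.14 for Zfp458 and between −0.14 and 0.13 for Zfp493.

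Sums of some cell type markers, but not of all, varied along with the pattern. The 10 contractile smooth muscle markers were at 1629, 1056 and 2034 CPM in saline and 1045, 2405 and 2519 CPM with vasostatin-2, lowest in the libraries where most cluster genes were highest. The 10 proliferation markers were at 820, 620 and 729 CPM in saline and 669, 728 and 760 CPM with vasostatin-2, again lowest in those 2 libraries. The 10 endothelial markers, at 2120, 2015 and 2390 CPM in saline and 2051, 2278 and 2387 CPM with vasostatin-2, had the same low libraries. The sums of red cell markers, given above, and of 8 adipocyte markers ran the other way and were highest in those libraries. The adipocyte sums were 3139, 6951 and 6264 CPM in saline and 6945, 5030 and 5442 CPM with vasostatin-2. Adventitial fibroblast markers were at 46324, 25271 and 33210 CPM in saline and 32190, 29341 and 36430 CPM with vasostatin-2, lowest in replicate 2 of each. Skeletal muscle markers stood at 1175 CPM in vasostatin-2 replicate 3 and between 71.4 and 126 CPM elsewhere. Monocyte and macrophage markers and those of T and NK cells were highest in saline replicate 2, like most cluster genes. With vasostatin-2 both were highest in replicate 2 instead (8855, 9385 and 8942 CPM, and 52.4, 63.3 and 48.9 CPM). Schwann cell markers were highest in saline replicate 3. The part of all these cells in the shared pattern was not tested.

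**Figure D5:**
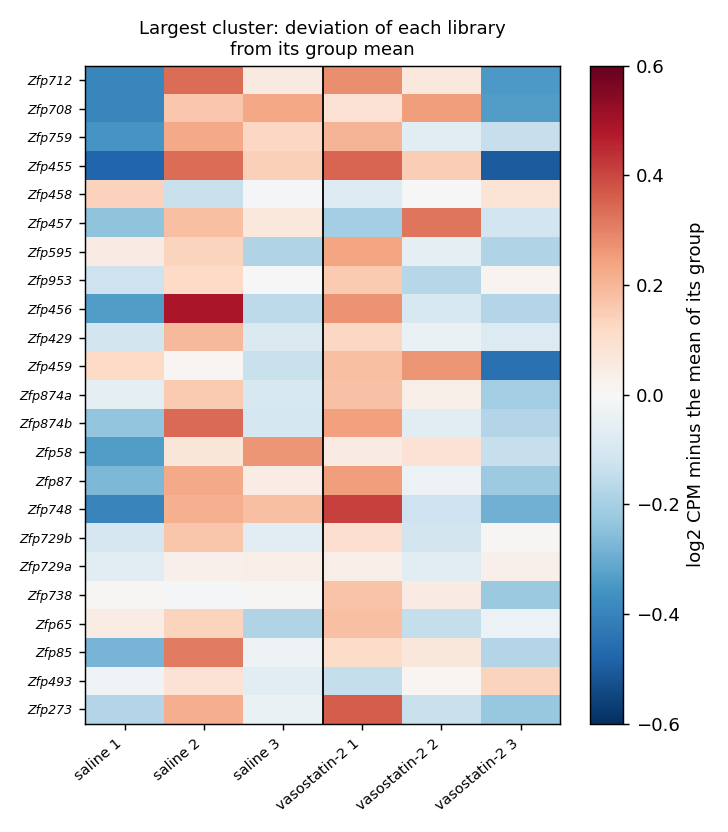
Deviation of log2 CPM from the mean of its group (colour) for the 23 tested genes of the large cluster (rows, in order of position) in the 6 libraries (columns). Most rows are low in saline replicate 1 and vasostatin-2 replicate 3 and high in saline replicate 2 and vasostatin-2 replicate 1, while the row of Zfp729a is pale throughout.

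The spread within groups was larger for the zinc finger genes than for most genes with vasostatin-2. Their median coefficient of variation was 12.6% in saline and 13.3% with vasostatin-2, against 11.2% and 7.75% over all genes. Over the Zfp genes on other chromosomes it was 10.1% and 9.38%. The median level of these sets also differed, at 4.59, 10.6 and 5.46 TPM, and its part in the spread was not tested. Zfp729a, with 4.08% and 4.12% at 1019.26 counts or more per library, was among the steadier genes.

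The corepressor through which KRAB proteins act was measured with a list of 36 symbols of TRIM28 and its silencing partners, 35 of which were in the table under that name. Trim28 itself was abundant and level, at 156 ± 14.1 CPM in saline against 155 ± 9.10 CPM with vasostatin-2 (log2 change −0.01, SE 0.09). Of the 35 genes 13 had a higher and 22 a lower mean with vasostatin-2, with a median log2 change of −0.015. edgeR called 0 of them, and 2 had an unadjusted p below 0.05, both lower, against 3.85% of all genes in that direction. DESeq2 called 1, Resf1 (adjusted p = 0.0444), which was lower, against 0.458% of all genes in that direction. Nothing is read from these counts.

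In 4 of the 35 (11.4%) the groups did not overlap, all lower with vasostatin-2. Over all genes the share was 6.72% in that direction and 12.8% in either direction, so nothing is read from the 4 as a set. Resf1, which binds SETDB1 and takes part in silencing retroelements, was at 88.2, 81.9 and 84.6 CPM in saline and 71.8, 63.9 and 59.5 CPM with vasostatin-2. Its log2 change was −0.38 (SE 0.08; adjusted p = 0.458 by edgeR), the lowest of the list, and it lay lower in 3 of 3 libraries. Tasor, a subunit of the HUSH silencing complex, was at 48.5 ± 1.79 and 42.9 ± 1.88 CPM (log2 change −0.18; adjusted p = 0.681 by edgeR). Setdb1, the methyltransferase itself, was at 62.8 ± 2.13 and 58.5 ± 2.04 CPM, and Cbx1, a heterochromatin protein, at 40.5 ± 1.40 and 38.1 ± 0.0144 CPM. Their log2 changes were −0.10 and −0.09, with adjusted p values of 0.775 and 0.806 by edgeR. By edgeR, the test used throughout, none of the 4 was called.

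The symbol rule left out some genes inside the span of the cluster. Rsl1, a KRAB zinc finger gene by another name, was at 7.43, 8.99 and 8.77 CPM in saline and 9.04, 8.66 and 7.40 CPM with vasostatin-2. Like most genes of the cluster, it had its lowest values in the first saline and the third vasostatin-2 library. The pattern was not limited to zinc finger genes. Uqcrb had it too, at 78.5, 97.9 and 91.3 CPM in saline and 91.2, 89.1 and 83.5 CPM with vasostatin-2. So did Mterf3, at 20.6, 27.5 and 25.9 against 26.9, 24.1 and 21.8 CPM. Rslcan18 was lowest in vasostatin-2 replicate 2 instead (2.45, 1.30 and 1.63 CPM). The median log2 change of the 6 tested genes of the span without a Zfp symbol was −0.022, and in none of them were the groups apart.

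Depth and tissue content bear on these values as follows. Total estimated counts were between 19333730 and 20105995 per library, so that 3 counts correspond to at most 0.155 CPM. The zinc finger genes took between 0.0360% and 0.0466% of them. All 10 contractile smooth muscle markers were present, but so were those of other cells: the 10 adventitial fibroblast markers summed to between 25271 and 46324 CPM and the 10 monocyte and macrophage markers to between 6999 and 10169 CPM. The levels above are thus those of a mixed tissue. Schwann cell markers stood at 922 CPM in saline replicate 3 and between 176 and 283 CPM elsewhere.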

How the data were processed

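Gene expression was analysed in 6 bulk RNA-seq libraries, 3 per treatment, named as batch 1 throughout. Per the submitters' processing notes, HISAT2 2.1.0, DESeq2 1.26.0 and the build GRCm38.p6 were used. The counting tool and strandedness are not given in the sources used here, so reads of overlapping and antisense genes cannot be told apart. The authors deposited 1 table with an estimated count per gene and library that need not be whole. The TPM values deposited by the authors were used for levels between genes, and the deposited FPKM values were not used. The deposited log2 fold changes and p-values and q-values are the authors' own, and are quoted only where their table is named.

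Estimated counts were rounded, filtered with filterByExpr (14557 genes kept) and scaled by TMM (factors 0.985 to 1.01). edgeR 4.0.16 (R 4.3.3) fitted the quasi-likelihood test with treatment as the only term, over all genes. The biological coefficient of variation was 16.1%. DESeq2 1.42.0, which left 584 adjusted p-values undefined, and limma 3.58.1 (voom) were alternatives. The fit was tested on simulated counts. The series design calls the 3 libraries of a group biological replicates, without tying them to single mice. The p-values therefore set a difference between groups against the spread among these samples.

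The genes, lists and alternatives were chosen with earlier results of these data known. Named are the 10 genes with the highest mean TPM, those whose groups do not overlap, the 3 with the largest change in each direction, Zfp729a and its closest copy, and Trim28, Setdb1 and the corepressor genes whose groups do not overlap. Zfp729b, Zfp455, Zfp640 and Rsl1 were named after their values were seen. Shared sequence was measured on GENCODE M21 transcripts. No protein table was used here, so identity between copies was taken from coding sequence, and paralogues were summed by symbol stem or by shared 50-base stretches (at least 5%), the latter added after seeing the data. The promoter motif was also chosen after seeing the windows. Sequences come from GENCODE and RefSeq. Python 3.11.15 with pandas 2.3.3 and matplotlib 3.10.9 was used for tables and figures. The precision of each value is set by 3 libraries per group.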

Additional observations from a re-analysis of the deposited data

How the results depend on the processing

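edgeR called 0 genes under other scalings, other low-count filters, and with the replicate number as a block, and limma-voom called 0. DESeq2 called 113, and leaving out 1 replicate gave 0 to 2 (2 without saline replicate 2). Zfp genes of chromosome 13 whose groups did not overlap numbered 2 of 36, 3 by TPM and 3 to 7 when 1 replicate was left out. Over all genes the share was 12.8%, and 17.7% to 30.0% with 1 replicate left out, where fewer libraries separate more easily. Over the same settings the median log2 change ran from −0.112 to 0.003 and the log2 ratio of summed counts from −0.207 to −0.075. The median was −0.084 with paralogues summed by symbol stem or by shared sequence. For 10 named genes, 120 of 120 alternative values lay within 1 SD of the value given. This bound is wide beside small changes. The sign did not hold in every alternative for Zfp346, Zfp367, Zfp369, Zfp825 and Zfp935, and the log2 change of Zfp367 ran from −0.08 to 0.20. The log2 change of Zfp729a ran from −0.49 to −0.42 and that of Zfp131 from −0.25 to −0.15.

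The groups share replicate numbers. With the replicate block the median log2 change was −0.058 and 0 genes were called. Deviations of same-numbered libraries correlated at −0.119, 0.0251 and 0.0273, and those of differently numbered libraries at −0.223 to 0.221. No pairing by number was seen, but with 3 libraries per group these values cannot exclude it. Depth limits Zfp640, Zfp184 and Zfp457 most, all below 1 TPM. How reads shared among copies were divided is unknown, and this limits the values of genes that share sequence.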

Other observations

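The strand in the deposited table was plus where GENCODE M21 gives minus for 9 of the 36 matched zinc finger genes of chromosome 13, among them Zfp738, Zfp131 and Zfp429. The same held for 2487 of 17804 genes (14.0%), and the opposite for 0. Strands and orientations printed above follow GENCODE or RefSeq. Of the 37 genes, 9 overlapped another of them in the deposited coordinates, and 21 listed a transcript from RNAcentral (non-coding RNA records), as did 9461 of the 18476 genes of the table.

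A second stretch, TGACGTCA, the palindromic cAMP response element, was in the promoter windows of 5 of 21 cluster genes (23.8%), 2 of the 10 other zinc finger genes of the chromosome, 6 of 293 Zfp genes on other chromosomes (2.05%) and 2.91% of all genes of the table with a window. It was chosen after the windows were seen, and the count is a description.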
